A study of Ambystoma mexicanum with 12 samples.

Results

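Late healing of axolotl skin was examined by setting the 3 arrays at 21 days post injury (dpi) against the 3 arrays at 14 dpi, 6 of the 12 arrays of the series. The arrays were chosen by the injury time in their titles, and every probe of the Amby002 axolotl array other than the 45 control probes entered the comparison, which left 20035 of 20080. Each array held total RNA from full-thickness skin biopsies of white axolotls (Ambystoma mexicanum), described as adult males 2 years old, taken at 21 or 14 dpi. The remaining arrays, 3 at 2 dpi and 3 of uninjured skin, entered the fit to estimate the spread. The study's microarray methods named no transgene and no injected agent. Its general methods state that animals were anaesthetised with p-amino benzocaine ahead of in vivo work. The axolotl is a salamander that rebuilds full-thickness skin wounds without a scar. Another label field gave 7 days for the arrays titled 14 days, and the title, the tissue label and the study's methods, which all gave 14 days, were followed. The labels also carried a treatment text that described a spinal cord experiment with ivermectin, injections and pooling of larval animals. The study's methods named no ivermectin and described 3 separate adults. It is therefore unsettled whether an array was 1 animal, and p-values measure only the spread between arrays.

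When a skin wound has closed, fibroblasts fill the bed with new matrix and then remodel it over weeks. Collagen I and III make the bulk of the fibrils, small proteoglycans and collagens such as VI and XII set how fibrils pack, and fibrillin microfibrils carry elastin and the glycoproteins that bind it. Myofibroblasts, fibroblasts that make smooth muscle actin, pull on this matrix, while the epidermis above stratifies again and dividing cells become fewer. In salamanders the dermis, its glands and the basal lamina are rebuilt close to the original form.

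The 6 arrays were alike in overall signal, with medians of 5.56 to 5.61 at 21 dpi and 5.55 to 5.60 at 14 dpi on the log2 scale of the robust multi-array average (RMA) values. Pearson's r over all probes was 0.98 to 0.994 within 21 dpi and 0.972 to 0.989 within 14 dpi. The library labelled 14 dpi replicate 2 stood apart from its group: it correlated at 0.982 to 0.992 with the 21 dpi arrays, and its closest array was 21 dpi replicate 1, whereas 14 dpi replicates 1 and 3 correlated at 0.962 to 0.985 with the 21 dpi arrays. Whether the labels of arrays were exchanged, and whether the same animals were sampled at both times, cannot be settled from the sources used here, and either would change what the differences between 21 and 14 dpi mean. Calls are given over all arrays, and for each list described the number that passed without 14 dpi replicate 2 is added where it was above 0. In most lists that array lay nearest to 21 dpi among those at 14 dpi, so leaving it out widens most differences in advance. Genes that passed without it therefore show the weight of that array and add no support for a difference. Among markers that define cell types, those of fibroblasts (7 of 7), macrophages (5 of 5), smooth muscle (4 of 4), endothelium (4 of 4), epidermis (5 of 7) and skeletal muscle (6 of 8) had a probe, and none of the 4 Schwann cell markers did.

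In the fit over all arrays 34 of 20035 probes changed between 21 and 14 dpi (limma, adjusted p under 0.05), which was 0.170% of the probes tested. Of these, 20 were higher at 21 dpi (0.0998%) and 14 lower (0.0699%), and 22 differed at least 2-fold, 16 upward and 6 downward. At the nominal level, an unadjusted p under 0.05, 2041 probes (10.2%) differed, 856 upward (4.27%) and 1185 downward (5.91%). For all 34 the 3 arrays at 21 dpi lay clear of the 3 at 14 dpi, as they did for 15.7% of all probes. Adjusted p-values of the 34 ran from 0.0199 to 0.0493. The count rested on single arrays: without 14 dpi replicate 2 it was 471 (2.35%), 212 higher and 259 lower, with all 34 among them, and without 14 dpi replicate 1 or 3 it was 0, with 1355 and 1271 probes at the nominal level. It was 2, 6 and 1 without 21 dpi replicates 1, 2 and 3. Fitted on the 6 arrays at 21 and 14 dpi alone, 0 probes passed (2193 at the nominal level), so every call drew on the spread among the uninjured and 2 dpi arrays as well. With the replicate number as a block the count was also 0 (1940 at the nominal level).

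Within 14 dpi, replicate 2 was the array nearest to the 21 dpi values in 16 of the 20 probes that rose and in 10 of the 14 that fell. The 34 probes comprised 20 with a gene symbol and 14 without. Those without a symbol differed by 1.30 to 1.83 where they rose (5 probes) and by -0.56 to -1.66 where they fell (9 probes), all as Log2-fold changes. A gene was represented by its brightest probe, and 14 of the 8639 genes with a symbol changed by that probe (0.162%), 9 upward and 5 downward.

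Matrix and adhesion genes were among those that rose. CDH13, T-cadherin, a cadherin held to the membrane by a lipid anchor, was at 6.97, 6.08 and 6.30 at 21 dpi, against 4.43, 4.71 and 3.98 at 14 dpi. Its Log2-fold change was 2.08 ± 0.26 (SE, adjusted p = 0.0232), the largest of the 14. EMILIN1, a glycoprotein of elastic fibres, was at 5.59, 5.83 and 5.67 at 21 dpi and at 4.90, 4.73 and 4.74 at 14 dpi, a Log2-fold change of 0.91 ± 0.12 (SE, adjusted p = 0.0265). In neither gene did the arrays of the 2 times overlap, and for EMILIN1 14 dpi replicate 2 was the lowest of its group.

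C1QTNF6, one of the C1q and TNF related proteins, was at 5.65, 6.33 and 5.57 at 21 dpi and at 4.18, 4.44 and 4.26 at 14 dpi, a Log2-fold change of 1.56 ± 0.18 (SE, adjusted p = 0.0199). ANGPTL1, an angiopoietin-like protein, was at 4.69, 5.22 and 4.82 at 21 dpi, against 3.91, 3.67 and 3.63 at 14 dpi, and rose by 1.17. PMCH, the precursor of melanin-concentrating hormone, was at 5.15, 4.93 and 4.57 at 21 dpi and at 3.43, 3.88 and 3.86 at 14 dpi, and rose by 1.16. The 14 dpi values of ANGPTL1 and PMCH lay below 4.08, the lower quartile of all values. Signal over background was not measured, so whether such low values stand clear of background is unknown.

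MYL9, the regulatory light chain of smooth muscle myosin, was at 7.36, 7.74 and 7.50 at 21 dpi, against 6.61, 6.56 and 6.36 at 14 dpi, a Log2-fold change of 1.02 ± 0.14 (SE, adjusted p = 0.0265). CRABP1, which holds retinoic acid in the cytoplasm, was at 7.28, 6.72 and 6.89 at 21 dpi and at 5.43, 5.64 and 4.64 at 14 dpi, and rose by 1.73. CTSH, the lysosomal protease cathepsin H, was at 5.13, 4.78 and 4.89 at 21 dpi and at 3.23, 3.67 and 2.51 at 14 dpi, and rose by 1.79. SLITRK2, a membrane protein of neurons that acts on neurite growth, rose by 0.87, with 4.71, 4.99 and 5.03 at 21 dpi and 3.89, 4.25 and 3.98 at 14 dpi. CTSH in all 3 arrays at 14 dpi and SLITRK2 in 2 of the 3 also lay below the lower quartile, whereas MYL9 and CRABP1 lay above it in every one of the 6 arrays.

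Of the 5 genes that fell, MAL, a proteolipid of membrane rafts in epithelia and myelin, was at 8.65, 8.90 and 8.75 at 21 dpi and at 10.60, 9.88 and 10.69 at 14 dpi, a Log2-fold change of -1.62 ± 0.24 (SE, adjusted p = 0.03). CUBN, cubilin, an endocytic receptor best known from gut and kidney, was at 8.09, 7.81 and 7.75 at 21 dpi, against 9.20, 8.76 and 8.83 at 14 dpi, and fell by 1.05. ATP2A2, the calcium pump of the endoplasmic reticulum known as SERCA2, was at 10.09, 10.31 and 10.21 at 21 dpi and at 11.10, 10.73 and 11.14 at 14 dpi, and fell by 0.79. All 3 were tight at 21 dpi, with SDs of 0.12, 0.18 and 0.11.

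SORL1, a sorting receptor of the endosome, was at 5.88, 6.05 and 5.87 at 21 dpi, against 6.75, 6.45 and 6.61 at 14 dpi, and fell by 0.67. ATRN, attractin, which in mice acts in agouti pigment signalling, was at 5.55, 5.56 and 5.37 at 21 dpi and at 6.17, 6.02 and 6.12 at 14 dpi, and fell by 0.61. Both differences were under 2-fold.

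**Figure D1:**
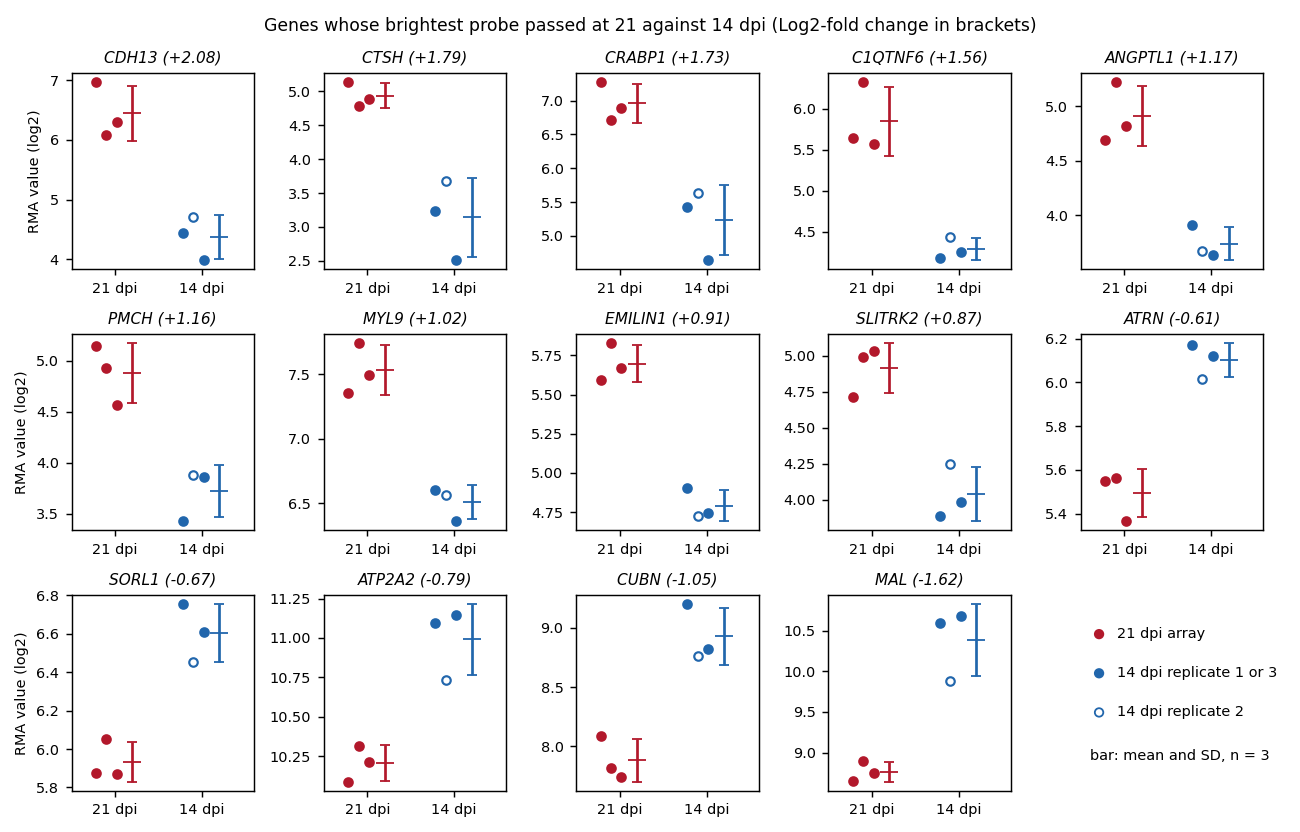
RMA values (log2, vertical axis, scaled per gene) of the 14 genes whose brightest probe passed, 21 dpi arrays left of 14 dpi arrays, with points for arrays and a bar for the mean and SD (n = 3). The times do not overlap in any of the 14 genes, and the open circle, 14 dpi replicate 2, is the array nearest to 21 dpi for most of them.

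In 6 further genes a dimmer probe passed while the brightest did not. The probe that passed and the brightest were both higher at 21 dpi for the collagen VI chains COL6A1 and COL6A3 and the translation factor EIF4A2. The same held for the microfibril protein FBN1, although another FBN1 probe was lower. The dimmer COL6A1 probe was at 5.57, 5.21 and 5.62 at 21 dpi, against 4.42, 4.58 and 4.28 at 14 dpi (Log2-fold change 1.04, adjusted p = 0.0232), and the brightest at 12.17, 11.62 and 11.84 at 21 dpi, against 9.69, 11.03 and 9.53 at 14 dpi (1.79, adjusted p = 0.171). The brighter COL6A1 probe thus had the larger difference and the larger spread at each stage, and at 14 dpi its replicate 2 stood above the others. Its SD was 0.28 at 21 dpi, 0.82 at 14 dpi, 0.69 at 2 dpi and 0.41 in uninjured skin. For the dimmer probe the SD was 0.23, 0.15, 0.14 and 0.03 in the same order.

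The dimmer COL6A3 probe differed by 0.99 and the brightest by 1.46 (adjusted p = 0.408). FBN1 had 3 probes with Log2-fold changes of 1.95 (the one that passed), 1.92 for the brightest (adjusted p = 0.408) and -0.61 for the other, so its probes disagreed in sign. EIF4A2 differed by 0.94 in the probe that passed and 0.47 in the brightest. C1QTNF1, a relative of C1QTNF6, differed by 2.33 in the probe that passed, at 7.47, 8.22 and 7.79 at 21 dpi and 5.19, 6.01 and 5.31 at 14 dpi, and by 0.20 in the brighter one. The symbol UMOD was carried by 18 probes, of which 1 passed with 2.25 while the brightest differed by -0.24, so no direction is given for UMOD.

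The groups of genes below were described by the brightest probe of each gene, beside the same counts over all 8639 genes, where the median Log2-fold change was -0.03, 4.94% were higher and 7.11% lower at the nominal level, and the arrays of the 2 times did not overlap in 7.14% upward and 10.8% downward. Without 14 dpi replicate 2, 1.26% rose and 1.50% fell at the adjusted threshold. Across 34 lists 987 genes were measured and 4 of them changed, namely MYL9, EMILIN1, CTSH and ATP2A2. The arrays measure bulk tissue, in which fewer cells of a type and less RNA per cell cannot be told apart.

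Matrix proteoglycans and glycoproteins, the molecules that organise fibrils and bind growth factors, were mostly higher at 21 dpi, with 47 of 55 measured genes above 0 and a median Log2-fold change of 0.40. At the adjusted threshold 1 rose (EMILIN1) and 0 fell, and at the nominal level 20 were higher and 0 lower. With 14 dpi replicate 2 left out, 11 rose and 0 fell. ASPN, asporin, a small leucine-rich proteoglycan of collagen fibrils, was at 8.14, 9.05 and 8.71 at 21 dpi, against 5.78, 6.67 and 5.60 at 14 dpi, a Log2-fold change of 2.62 ± 0.43 (SE, adjusted p = 0.0564). The arrays did not overlap, and the 6.15-fold difference did not pass.

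The sushi-repeat proteins SRPX and SRPX2 both differed by 0.84 (adjusted p = 0.104 and 0.0625). MGP, the matrix Gla protein that keeps soft tissue from calcifying, was at 12.73, 11.65 and 12.23 at 21 dpi and at 9.75, 11.14 and 9.69 at 14 dpi, a difference of 2.01 (adjusted p = 0.156). HSPG2, the basement membrane proteoglycan perlecan, differed by 1.29 (adjusted p = 0.169), and POSTN, periostin, which links fibrils and cells in healing tissue, by 1.35 (adjusted p = 0.246). Once 14 dpi replicate 2 was omitted, ASPN, SRPX, SRPX2, MGP, HSPG2 and POSTN were among the 11 that passed.

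Elastic fibre genes had the same direction in 9 of 11 members, with a median of 0.63. EMILIN1 was the 1 that rose over all arrays, 5 were higher and 0 lower at the nominal level, and 4 rose without 14 dpi replicate 2. FBLN5, fibulin 5, which guides elastin onto microfibrils, was at 9.19, 8.85 and 8.97 at 21 dpi and at 6.74, 7.99 and 5.95 at 14 dpi, a Log2-fold change of 2.11 ± 0.45 (SE, adjusted p = 0.126). Its 21 dpi arrays lay close together, and the 14 dpi arrays were spread with an SD of 1.03. LOXL1, a lysyl oxidase of elastic fibres, differed by 1.26 (adjusted p = 0.193), with 7.96, 7.44 and 7.51 at 21 dpi against 5.90, 7.18 and 6.05 at 14 dpi.

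None of the 29 collagen genes measured changed by its brightest probe (0 higher and 0 lower in limma), and 10 were higher and 0 lower at the nominal level. Their median was 0.21, with 22 above 0. COL1A1, a chain of the main fibril collagen, was at 13.59, 13.79 and 13.66 at 21 dpi, against 12.65, 12.96 and 12.86 at 14 dpi, a Log2-fold change of 0.86 ± 0.50 (SE, adjusted p = 0.628). Its arrays did not overlap between the 2 times, but the SE of the fit, which also drew on uninjured skin and 2 dpi, was large. COL12A1, a collagen on the surface of fibrils, was at 10.10, 10.01 and 9.90 at 21 dpi and at 8.54, 8.98 and 8.46 at 14 dpi, a difference of 1.34 (adjusted p = 0.263). The dimmer COL12A1 probes differed by 0.07 to 1.48, and the other COL1A1 probe by 1.12 (limma, adjusted p = 0.467).

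COL1A2 differed by 0.80, COL5A1 by 0.79, COL5A2 by 0.88, COL6A2 by 1.76 and COL11A1 by 0.82, with adjusted p from 0.262 for COL11A1 to 0.434 for COL1A2. COL3A1 was at 13.80, 13.79 and 13.76 at 21 dpi and at 13.56, 13.70 and 13.56 at 14 dpi, a difference of 0.18 (adjusted p = 0.916). The other COL3A1 probe was at 8.81, 9.44 and 9.16 at 21 dpi, against 8.40, 7.83 and 8.14 at 14 dpi, a difference of 1.01 (adjusted p = 0.0933), so the 2 probes differed in size. COL17A1, the hemidesmosomal collagen of basal keratinocytes, had the opposite sign with -0.62 (adjusted p = 0.491) and overlapping arrays. Without 14 dpi replicate 2 the genes that rose were COL6A1, COL8A1 and COL11A1, 3 in all with 0 lower. COL8A1, a short-chain collagen, showed how much that array weighed: 6.23, 6.06 and 5.98 at 21 dpi, against 4.75, 6.32 and 4.49 at 14 dpi, with replicate 2 above all 3 arrays at 21 dpi.

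Of 28 genes that process or crosslink collagen, 0 passed, 9 were higher and 2 lower at the nominal level, and the median was 0.12. SERPINH1, the collagen chaperone of the endoplasmic reticulum, was at 10.62, 10.71 and 10.65 at 21 dpi and at 9.38, 9.80 and 9.29 at 14 dpi (1.17, adjusted p = 0.178). BMP1, which cleaves the C-terminal propeptide, differed by 1.02 (adjusted p = 0.0979), ADAMTS2, which cleaves the N-terminal one, by 1.05 (adjusted p = 0.18), and the crosslinking enzyme LOXL2 by 0.72 (adjusted p = 0.137). Without 14 dpi replicate 2, 6 rose, BMP1, LOXL1 and LOXL2 among them. Matrix proteases and inhibitors were mixed, with 4 of 24 higher and 2 lower at the nominal level and 0 at the adjusted one. In that list SERPINF1, a secreted serpin, differed by 1.44 (adjusted p = 0.0806), MMP14, a membrane collagenase, by 0.70 (adjusted p = 0.169) and HTRA1, a secreted serine protease, by 0.71 (adjusted p = 0.206). FAP, the fibroblast activation protein, differed by -0.56 (adjusted p = 0.28). With 14 dpi replicate 2 left out, SERPINF1, MMP14 and HTRA1 rose, 3 in all.

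**Figure D2:**
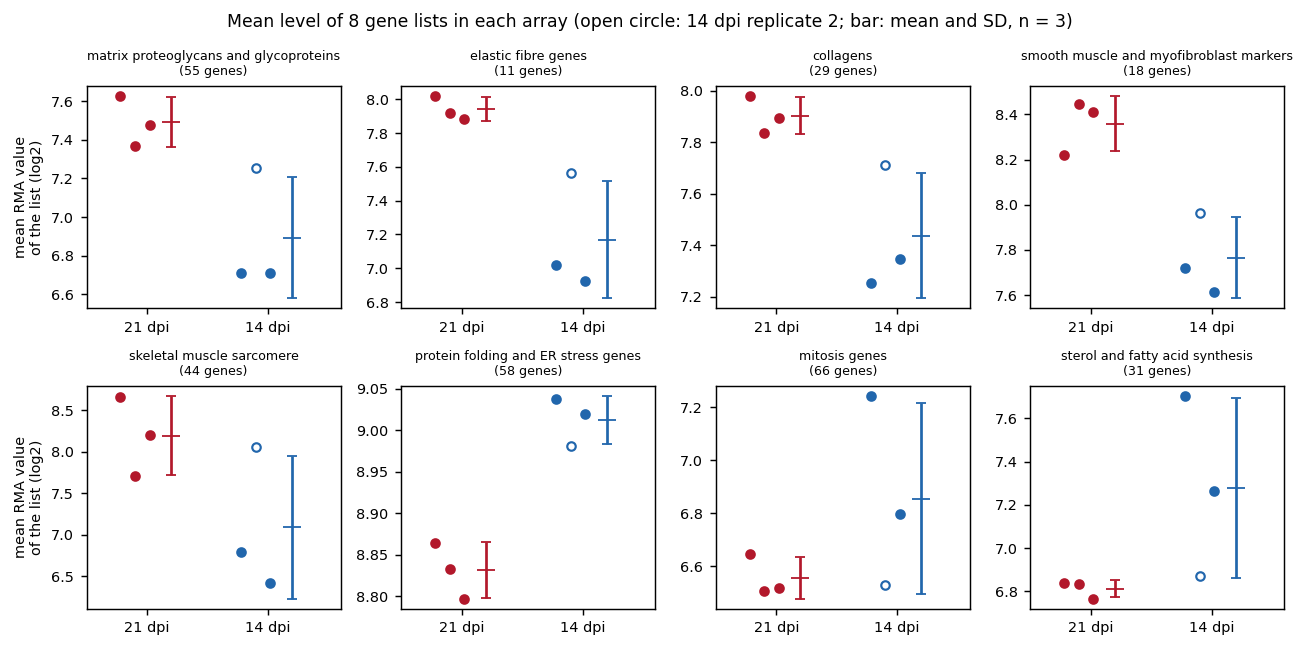
Mean RMA value (log2, vertical axis, scaled per list) of 8 gene lists in each array, 21 dpi left of 14 dpi, with points for arrays and a bar for the mean and SD (n = 3). In the matrix, elastic fibre, collagen and both muscle panels 21 dpi is higher on average, in the protein folding, mitosis and sterol panels lower, and the open circle, 14 dpi replicate 2, lies nearest to 21 dpi in each.

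Fibroblast and mesenchymal markers were above 0 in 20 of 23 genes, with a median of 0.22, 0 passing, and 6 higher and 1 lower at the nominal level. PDGFRL, a PDGF receptor-like protein, differed by 1.60 (adjusted p = 0.18), DKK3, a secreted relative of the Wnt inhibitors, by 1.06 (adjusted p = 0.119) and TCF4, a transcription factor, by 0.77 (adjusted p = 0.0834). These 3 rose without 14 dpi replicate 2. VIM, vimentin, a filament protein of mesenchymal cells, was at 13.60, 13.68 and 13.61 at 21 dpi and at 13.58, 13.59 and 13.45 at 14 dpi, a difference of 0.09 (adjusted p = 0.86). The VIM arrays of the 2 times did not overlap in this probe, by a narrow margin. Its dimmer probes differed by 0.45 and -0.31 (adjusted p = 0.523 and 0.851), so the VIM probes disagreed in sign.

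Smooth muscle and myofibroblast markers had a median of 0.55 over 18 genes. MYL9 was the 1 that rose, 0 fell, and 8 were higher and 0 lower at the nominal level. ACTA2, smooth muscle actin, was at 11.97, 12.52 and 12.34 at 21 dpi, against 10.98, 11.30 and 10.82 at 14 dpi, a Log2-fold change of 1.24 ± 0.35 (SE, adjusted p = 0.236). Its other 2 probes differed by 3.68 and 2.04 (adjusted p = 0.161 and 0.643). TAGLN, transgelin, was at 12.22, 12.27 and 12.14 at 21 dpi and at 10.86, 11.45 and 10.96 at 14 dpi (1.12, adjusted p = 0.242). MCAM, a surface protein of pericytes and endothelium, was at 7.21, 7.16 and 7.03 at 21 dpi and at 6.25, 6.14 and 6.05 at 14 dpi (0.98, adjusted p = 0.0597). In all 3 the arrays of the 2 times did not overlap, and without 14 dpi replicate 2 MYL9, MCAM and CNN1, calponin, passed.

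Skeletal muscle genes had the largest median of the 34 lists, 1.02 over 44 sarcomere genes, with 40 above 0, although 0 passed and 9 were higher and 1 lower at the nominal level. Their mean level was 8.67, 7.71 and 8.21 at 21 dpi and 6.80, 8.06 and 6.42 at 14 dpi, so that 14 dpi replicate 2 lay within the range of 21 dpi. MYL4, the embryonic and atrial myosin light chain in mammals, was at 10.64, 9.21 and 9.90 at 21 dpi, against 6.49, 7.43 and 5.33 at 14 dpi, a Log2-fold change of 3.50 ± 0.79 (SE, adjusted p = 0.153). MYOZ2, a Z-disc protein, differed by 1.93 (adjusted p = 0.224) and MYBPC3, a myosin-binding protein of the heart in mammals, by 1.68 (adjusted p = 0.2). Once 14 dpi replicate 2 was omitted, MYL4 rose and PDLIM5, a PDZ and LIM domain protein, fell, 1 in each direction. Centred by gene over all arrays, the sarcomere mean was 1.28, 0.32 and 0.82 at 21 dpi, -0.59, 0.68 and -0.97 at 14 dpi, and 1.45, 1.42 and -0.39 in uninjured skin, so it also varied among uninjured arrays.

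The matrix, elastic fibre and collagen means were also nearest to 21 dpi in 14 dpi replicate 2, as were 30 of the 34 lists, so this position was not particular to muscle and matrix, and the part of muscle in the matrix values was not settled by it. With the sarcomere mean as a covariate 2 probes passed, both higher at 21 dpi, and none of the 14 named genes was among them. MYL9 differed by 0.97 and MAL by -1.33 with the covariate, against 1.02 and -1.62 without it. Of the 32 genes of muscle excitation, calcium and energy, 26 were above 0 and 6 below, with a median of 0.40. At the nominal level 5 were higher and 3 lower. ATP2A2 was the 1 that fell at the adjusted threshold and 0 rose, so that ATP2A2 ran against most of its list. CHRNA1, a subunit of the muscle acetylcholine receptor, differed by 1.17 (adjusted p = 0.156), and CAV3, the caveolin of muscle, by 1.69 (adjusted p = 0.272). Without 14 dpi replicate 2, CHRNA1 rose and ATP2A2 fell, 1 in each direction.

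Myogenic regulators and some other muscle genes were listed apart from the sarcomere. Of the 16 genes in this list, 0 passed, 5 were higher and 0 lower at the nominal level, and the median was 0.10. The 5 included DES, a filament protein of muscle (1.79), and NCAM1, an adhesion protein (0.55), so the count is not of regulators alone. MYOG, myogenin, which drives the differentiation of muscle precursors, was at 6.89, 6.28 and 6.10 at 21 dpi, against 4.49, 5.36 and 4.73 at 14 dpi, a Log2-fold change of 1.56 ± 0.27 (SE, adjusted p = 0.0635). MYF5, an early myogenic factor, was at 6.08, 5.90 and 6.19 at 21 dpi and at 4.91, 5.40 and 4.82 at 14 dpi (1.01, adjusted p = 0.131). Mean levels of MYOG were 4.49 in uninjured skin, 4.19 at 2 dpi, 4.86 at 14 dpi and 6.42 at 21 dpi, so its level at 21 dpi was the highest of the 4 times, and both genes passed without 14 dpi replicate 2.

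Of 58 genes of protein folding and endoplasmic reticulum stress, 0 passed, 15 were lower and 1 higher at the nominal level, 42 were below 0 and 16 above, and the median was -0.17. DNAJB11, a co-chaperone of the reticulum, was at 9.66, 9.74 and 9.51 at 21 dpi, against 10.82, 10.31 and 10.59 at 14 dpi, a Log2-fold change of -0.94 ± 0.16 (SE, adjusted p = 0.0625). CALR, calreticulin, was at 12.10, 12.21 and 12.11 at 21 dpi and at 13.13, 12.55 and 13.19 at 14 dpi (-0.81, adjusted p = 0.0797). PDIA6, a disulfide isomerase, differed by -0.77 (adjusted p = 0.0734) and CRELD2, a stress-induced protein of the reticulum, by -0.97 (adjusted p = 0.0797). The arrays of the 2 times did not overlap in these 4 genes, and all 4 were among the 7 that fell without 14 dpi replicate 2, of which HSPD1 is a chaperone of mitochondria.

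SERPINH1, which works in the same compartment on collagen, had a difference of the opposite sign. Cytosolic ribosomal proteins differed little, with 0 of 58 passing, 0 at the nominal level and a median of 0.06. Mitochondrial respiratory chain genes had a median of -0.002 over 54 genes, with 0 passing and 2 higher and 5 lower at the nominal level. Among them CYCS, cytochrome c, differed by -0.64 (adjusted p = 0.206), and without 14 dpi replicate 2 COX4I2 rose while CYCS, CYC1 and NDUFA8 fell, 1 upward and 3 downward. Of 40 genes of glycolysis and the TCA cycle 0 passed, and 7 were lower and 1 higher at the nominal level. PGAM1, phosphoglycerate mutase, differed by -0.94 (adjusted p = 0.344), and without 14 dpi replicate 2 PGAM1, SUCLG1 and SUCLG2 fell, 3 in all.

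Mitosis genes were below 0 in 61 of 66 members, with a median of -0.28, 0 passing, and 9 lower and 0 higher at the nominal level. Their mean level was 6.65, 6.51 and 6.52 at 21 dpi and 7.24, 6.53 and 6.80 at 14 dpi. The difference thus lay in 14 dpi replicates 1 and 3, while replicate 2 lay within the range of 21 dpi. ANLN, anillin, of the cleavage furrow, was at 7.29, 6.63 and 6.79 at 21 dpi, against 8.83, 6.99 and 8.21 at 14 dpi (-1.11, adjusted p = 0.308). Its other probes differed less, by -0.33 and -0.18 (adjusted p = 0.752 and 0.462). The spindle motor KIF11 differed by -0.67 (adjusted p = 0.404), and the condensin subunits SMC2 and NCAPG2 by -0.42 and -0.56 (adjusted p = 0.344 and 0.335). With 14 dpi replicate 2 left out, 4 fell, ANLN and the kinase PLK1 among them, and 0 rose. DNA replication genes had a median of -0.13 over 54 genes, with 42 below 0 and 12 above, 0 passing, and 3 lower and 2 higher at the nominal level. FEN1 and CCNE2 each differed by -0.46 (adjusted p = 0.428 and 0.452). In the other direction GMNN, geminin, which holds back a second round of replication, differed by 0.92 (adjusted p = 0.446). TK1, thymidine kinase, was the 1 that fell without 14 dpi replicate 2.

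Sterol and fatty acid synthesis had the lowest median of the 34 lists, -0.28 over 31 genes, with 0 passing and 9 lower and 1 higher at the nominal level. SQLE, squalene epoxidase, was at 6.79, 5.70 and 6.10 at 21 dpi, against 10.44, 7.45 and 9.10 at 14 dpi, a Log2-fold change of -2.80 ± 0.66 (SE, adjusted p = 0.169). CYP51A1, the sterol demethylase, was at 6.08, 6.39 and 5.79 at 21 dpi and at 9.34, 6.66 and 7.90 at 14 dpi (-1.88, adjusted p = 0.246). FDPS, which makes farnesyl diphosphate, was at 7.29, 7.40 and 7.15 at 21 dpi and at 10.07, 7.15 and 8.75 at 14 dpi (-1.38, adjusted p = 0.447). The 3 enzymes shared an order within 14 dpi, with replicate 1 highest and replicate 2 lowest, and each fell without replicate 2, as did ELOVL7, which lengthens fatty acids, 4 in all.

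AACS, which feeds ketone bodies into lipid synthesis, differed by -1.45 (adjusted p = 0.36). ETHE1, a mitochondrial sulfur dioxygenase, was at 8.94, 9.60 and 9.40 at 21 dpi and at 11.71, 9.86 and 11.62 at 14 dpi (-1.75, adjusted p = 0.229). Its other probe averaged 9.55 at 21 dpi and 9.81 at 14 dpi and differed by -0.27 (adjusted p = 0.894), so the probes disagreed in size. BCAN, brevican, a proteoglycan best known from brain, was at 7.55, 6.25 and 6.76 at 21 dpi, against 8.89, 9.63 and 9.57 at 14 dpi, a difference of -2.51 that did not pass (adjusted p = 0.375). The other BCAN probe differed by -0.20 (adjusted p = 0.741), so here too the probes disagreed in size. Unlike the lipid enzymes, the brightest BCAN probe had its lowest 14 dpi value in replicate 1, so it did not share their order.

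**Figure D3:**
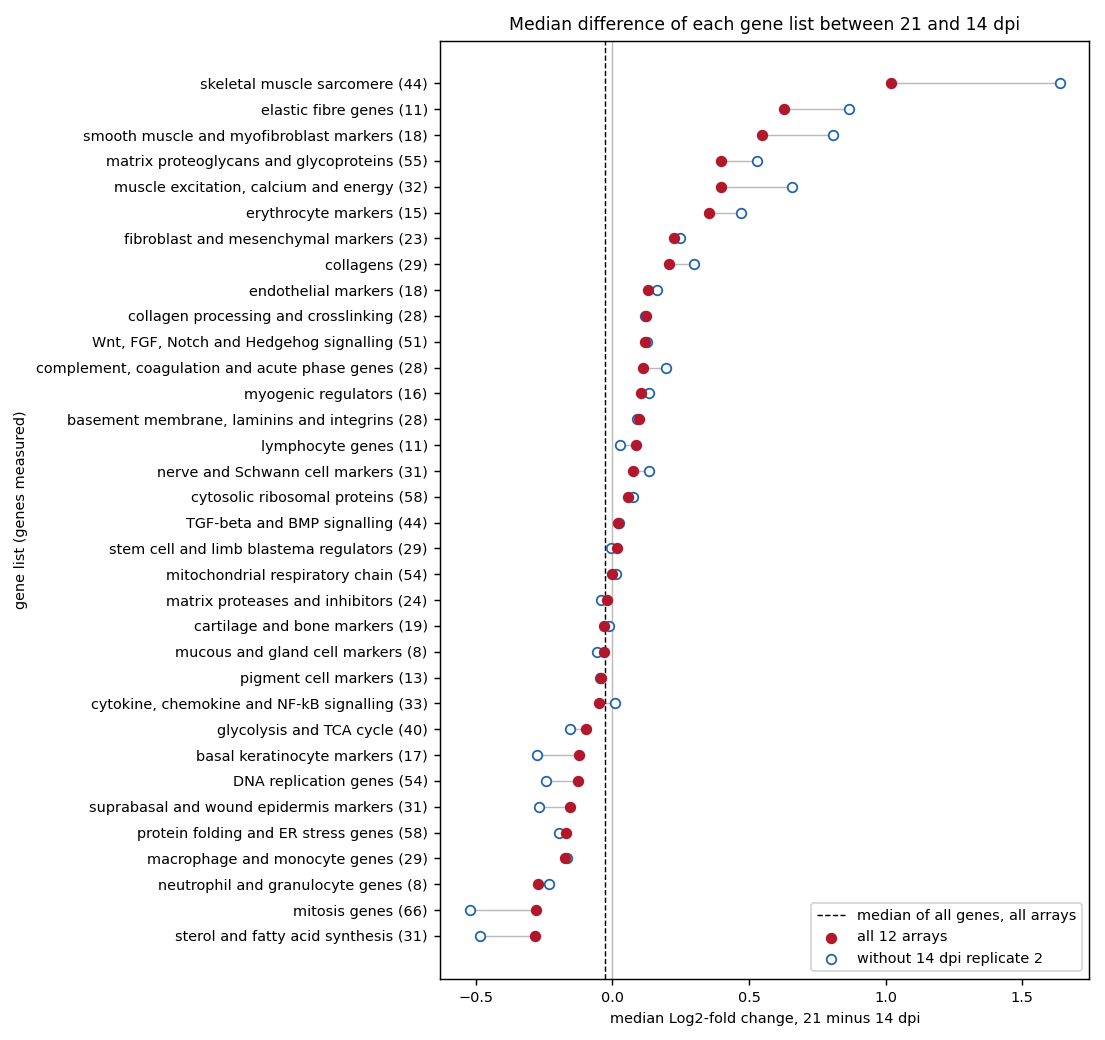
Median Log2-fold change at 21 minus 14 dpi (horizontal axis) of the 34 gene lists, with the number of genes measured in brackets, over all arrays (filled) and without 14 dpi replicate 2 (open), and a dashed line at the median of all genes. Sarcomere genes are highest at 1.02 and sterol and fatty acid synthesis lowest at -0.28, and without that array most of the outer lists lie farther from 0.

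Epidermal lists had small median shifts. Basal keratinocyte markers were below 0 in 13 of 17 genes, with a median of -0.12, 0 passing, and 1 higher and 2 lower at the nominal level. The 1 higher was DST, which averaged 7.85 at 21 dpi and 6.76 at 14 dpi (limma, adjusted p = 0.229), with arrays that did not overlap. It thus ran against most of its list, and its dimmer probes differed by -0.05 to 0.58. Suprabasal and wound epidermis markers were below 0 in 25 of 31, with a median of -0.15, 0 passing, and 0 higher and 5 lower. TP63, the transcription factor of basal keratinocytes, was at 6.12, 6.86 and 6.69 at 21 dpi and at 7.44, 5.96 and 7.15 at 14 dpi, a difference of -0.29 (adjusted p = 0.854) that took the other sign, 0.0043, without 14 dpi replicate 1. CDH1, E-cadherin, differed by -0.60 in its brightest probe (adjusted p = 0.383) and by 0.90 in another (8.91, 8.62 and 8.55 at 21 dpi, against 7.73, 8.10 and 7.55 at 14 dpi, adjusted p = 0.0551), so its probes disagreed in sign and no direction is given. EGFR differed by -0.47 (adjusted p = 0.327) and the tight junction protein TJP1 by -0.48 (adjusted p = 0.392).

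EHF, an ETS factor of epithelia, was at 5.64, 5.44 and 5.12 at 21 dpi, against 7.37, 5.83 and 6.81 at 14 dpi (-1.27, adjusted p = 0.336). Its mean was 9.36 in uninjured skin, 8.48 at 2 dpi, 6.67 at 14 dpi and 5.40 at 21 dpi, the lowest of the 4 at 21 dpi. FGFBP1, which carries FGFs out of the matrix, differed by -1.25 (adjusted p = 0.404) with overlapping arrays. RAB27A, which moves pigment granules, differed by -0.99 (adjusted p = 0.193). The pigment enzymes TYR, TYRP1 and DCT differed by -0.04, -0.05 and 0.02. Their means at 21 and 14 dpi lay between 3.16 and 4.09, near or below the lower quartile of all values, so these small differences do not show whether the enzymes changed. TJP1 and RAB27A fell without 14 dpi replicate 2, while the brightest CDH1 probe passed downward and the other upward.

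Macrophage and monocyte genes were below 0 in 22 of 29, with a median of -0.17. CTSH was the 1 that rose and 0 fell, and 1 was higher and 7 lower at the nominal level, so that CTSH ran against most of its list. CTSB, cathepsin B, was at 12.76, 12.59 and 12.66 at 21 dpi, against 12.89, 13.15 and 12.98 at 14 dpi (-0.34, adjusted p = 0.246), and CD63, a lysosomal tetraspanin, differed by -0.33 (adjusted p = 0.253). PLA2G7, a phospholipase of macrophages, was at 5.39, 6.44 and 5.96 at 21 dpi and at 7.94, 6.22 and 7.64 at 14 dpi (-1.34, adjusted p = 0.325). Its other probe averaged 5.97 at 21 dpi and 5.98 at 14 dpi and so did not share the difference. Once 14 dpi replicate 2 was omitted, CTSH rose and PLA2G7 and ACP5, a phosphatase of macrophages and osteoclasts, fell by 1.86 and 0.90 (limma, adjusted p = 0.0328 and 0.0372), 1 upward and 2 downward. The defining macrophage markers differed by -0.12 for CD68, -0.30 for AIF1, -0.49 for CTSS, 0.14 for CSF1R and 0.06 for LAPTM5.

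Of 8 neutrophil and granulocyte genes 7 were below 0 and 0 passed, with 2 lower and 0 higher at the nominal level. CYBB, a subunit of the phagocyte oxidase, was at 8.97, 8.29 and 8.52 at 21 dpi and at 9.0, 9.76 and 9.17 at 14 dpi (-0.72, adjusted p = 0.304), and LYZ, lysozyme, differed by -0.46 (adjusted p = 0.434). For both genes 14 dpi replicate 2 was the highest of its group and so the farthest from 21 dpi, as it was for the mean of this list. Cytokine and NF-kB genes had a median of -0.05 over 33 genes, lymphocyte genes of 0.09 over 11, and in each 0 passed, with 2 higher and 0 lower at the nominal level in the cytokine list and 0 in the lymphocyte list.

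Vessel and blood markers had positive medians. Endothelial markers had 0.13 over 18 genes, with 12 above 0 and 6 below, 0 passing, and 3 higher and 0 lower at the nominal level. MMRN1, multimerin, was at 7.79, 7.47 and 7.61 at 21 dpi, against 5.91, 7.06 and 5.18 at 14 dpi (1.57, adjusted p = 0.32). The brightest probe of VWF, von Willebrand factor, differed by 0.94 (adjusted p = 0.407), and its dimmer probes by 0.08 and 0.19. The other defining endothelial markers PECAM1, CDH5 and KDR differed by 0.44, 0.14 and -0.05. Erythrocyte markers had 0.35 over 15 genes, with 13 above 0 and 2 below, 0 passing, and 3 higher and 0 lower at the nominal level.

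Lists of patterning and signalling genes held none that passed, which does not show that these genes were level. Of 29 stem cell and limb blastema regulators, 0 passed, 1 was higher and 1 lower at the nominal level, and the median was 0.02. The 1 higher was HOXA13, the homeobox gene of the distal limb, at 7.84, 4.64 and 6.45 at 21 dpi and at 3.18, 5.11 and 3.30 at 14 dpi, a Log2-fold change of 2.45 ± 0.69 (SE, adjusted p = 0.236). The arrays overlapped, since 14 dpi replicate 2 was above 21 dpi replicate 2. The other 2 arrays at 14 dpi lay below the lower quartile of all values, so the size of the difference is uncertain, and means were 3.15 in uninjured skin and 3.05 at 2 dpi. SALL4, the zinc-finger factor that the study followed, was at 6.22, 5.34 and 6.01 at 21 dpi, against 5.63, 6.23 and 6.72 at 14 dpi, a difference of -0.34 ± 0.31 (SE, adjusted p = 0.797) with overlapping arrays and a mean of 4.20 in uninjured skin. The dimmer SALL4 probe differed by 0.03 (limma, adjusted p = 0.97) and so did not share that difference.

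HMGA1, a chromatin protein of proliferating cells, differed by -0.44 (adjusted p = 0.343). Wnt, FGF, Notch and Hedgehog genes had a median of 0.12 over 51 genes and TGF-beta and BMP genes of 0.02 over 44, with 0 passing in each, 6 higher and 2 lower in the Wnt list and 4 higher and 3 lower in the TGF-beta list at the nominal level. Above 0 were 35 genes of the Wnt list, with 16 below, and 23 of the TGF-beta list, with 21 below. In the Wnt list the receptor FZD2 differed by 0.90 (adjusted p = 0.355) and SFRP4, a secreted Wnt antagonist, by -0.78 (adjusted p = 0.193). SFRP4 was at 7.52, 7.12 and 7.19 at 21 dpi and at 8.07, 8.08 and 8.04 at 14 dpi, with an SD of 0.02 at 14 dpi. Without 14 dpi replicate 2, DKK3 was the 1 gene of the Wnt list that rose, and BMP1 and HTRA1 were the 2 of the TGF-beta list.

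The full series placed these levels beside uninjured skin and early healing, as described values without a test. MYL9 averaged 7.60 in uninjured skin, 5.66 at 2 dpi, 6.51 at 14 dpi and 7.53 at 21 dpi, so its level at 21 dpi was near that of uninjured skin. ASPN averaged 4.77, 3.74, 6.02 and 8.64 over the same 4 stages and COL12A1 8.59, 5.47, 8.66 and 10.00, both highest at 21 dpi. CUBN averaged 4.79, 5.04, 8.93 and 7.88, and was still far above uninjured skin at 21 dpi.

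MAL averaged 10.75 in uninjured skin, 11.50 at 2 dpi, 10.39 at 14 dpi and 8.77 at 21 dpi, and DNAJB11 10.72, 11.13, 10.57 and 9.64, so both were lowest at 21 dpi. FBLN5 averaged 8.95, 5.01, 6.89 and 9.0, close to uninjured skin at 21 dpi. C1QTNF6 averaged 4.03, 3.96, 4.29 and 5.85, and was above its uninjured level in each 21 dpi array.

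**Figure D4:**
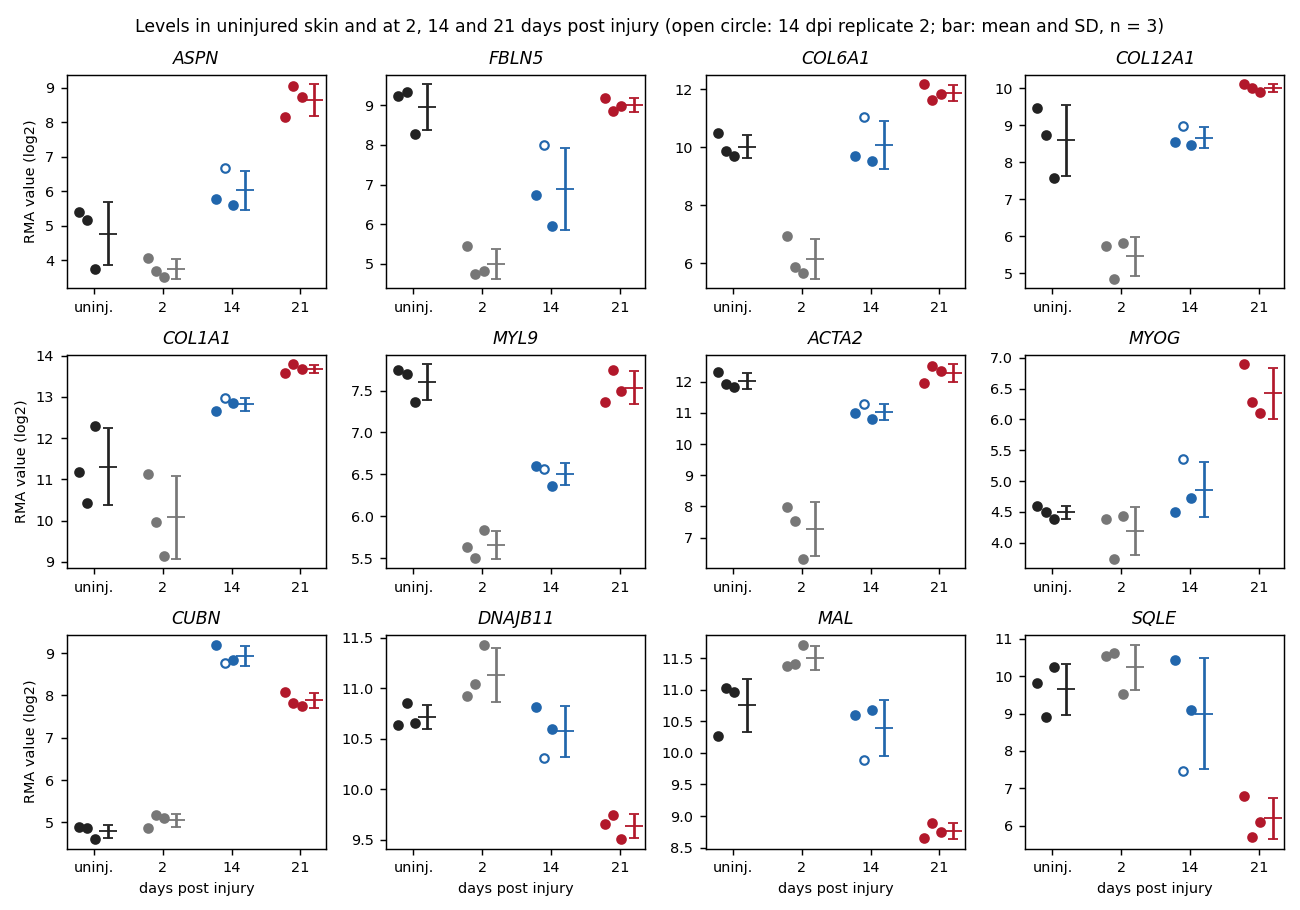
RMA values (log2, vertical axis, scaled per gene) of 12 genes in uninjured skin and after injury, by dpi (horizontal axis), with points for arrays and a bar for the mean and SD (n = 3). ASPN, COL12A1 and MYOG are highest at 21 dpi, MAL, DNAJB11 and SQLE lowest, MYL9 and FBLN5 near uninjured skin, and CUBN above it.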

How the data were processed

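Total RNA of 12 skin arrays was labelled with biotin and hybridised by the authors to Affymetrix Amby002 arrays. The deposited log2 values were produced by the authors with RMA, which corrects background, quantile normalises and summarises probes. The submitters' processing notes name Affymetrix Expression Console and the study's methods the affy package, and no version is given in the sources used here. Scanner files were not analysed here, so signal over background and scan batches are unknown.

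The values were fitted with limma 3.58.1 in R 4.3.3 (lmFit, eBayes) with 4 group means over 12 arrays, and the contrast of 21 and 14 dpi was tested two-sided with Benjamini-Hochberg adjustment over 20035 probes. The number of arrays limits the precision, and a permutation test of 3 against 3 arrays cannot give an exact p below 0.1. Gene symbols came from the platform annotation (10951 probes had 1 symbol, 9084 none), and a gene was represented by its probe of highest mean. Named genes were those that passed, 4 genes per list with the lowest p, and genes the study followed. To reach 10 per direction, the largest differences were added among genes with an unadjusted p under 0.05 and arrays that did not overlap. Others were named after their values were seen, such as POSTN, FDPS, PLK1, TAGLN and the defining markers. The comparison, the lists and the named genes were chosen with earlier results of these data known. Alternatives changed the signal filter, normalisation, variance model, arrays, a muscle covariate and the replicate block. The fit was also run on simulated data with independent noise and no deviant array. There 66 of 100 probes shifted by 1 on the log2 scale and 90 of 100 shifted by 2 passed, with 11 false calls. That setting differs from these arrays, so it does not show how many true changes were found here.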

Additional observations from a re-analysis of the deposited data

How the results depend on the processing

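The number of probes that passed was not stable. Quantile normalisation, median centring, trended variances, the filter at the 25th percentile and keeping control probes gave 27 to 36 probes in all. Under trended variances 9 probes were lower. Leaving out probes under the median signal left 13 probes, 5 higher and 8 lower, 10 of them at least 2-fold, with 1 listed gene and 3 of the 14 named genes, of which some were no longer tested and 3 were tested and missed the threshold. Array weights gave 2632 probes, 1025 higher and 1607 lower, 457 at least 2-fold, with 237 listed genes. The 6 arrays alone, the replicate block over all arrays or over the 6 arrays, and an adjusted p under 0.01 each gave 0 probes, 0 higher, 0 lower, 0 at least 2-fold and 0 listed genes, and the first 3 also 0 of the 14 named genes, with limma's unadjusted p under 0.05 in 2193 probes for the 6 arrays, 1940 for the block and 1356 for the block in the 6 arrays. Deviations of same-numbered arrays from their group means correlated at -0.61, -0.652 and 0.068. With 3 arrays a group and 14 dpi replicate 2 apart from its group, these values cannot show whether the replicate numbers pair the arrays. With the sarcomere mean as a covariate 2 probes passed, 2 higher and 0 lower, 2 at least 2-fold, with 0 listed and 0 named genes. Leaving out 1 array in turn gave 0 to 471 probes, 0 to 212 higher, 0 to 259 lower, 0 to 243 at least 2-fold, 0 to 65 listed genes and 0 to 14 of the named genes. All low ends were reached without 14 dpi replicates 1 or 3, and all high ends without 14 dpi replicate 2. Lower probes and listed genes were also 0 without each 21 dpi replicate in turn and without uninjured replicate 2. Named genes were also 0 without 21 dpi replicates 1 or 3. Without uninjured replicate 2 the count was 5, without uninjured replicate 3 53 and without 2 dpi replicate 2 21. The 14 named genes and 6 further probes kept their sign in every fit that held them. TP63 ran from -0.74 without 14 dpi replicate 2 to the opposite sign, 0.0043, without 14 dpi replicate 1, and was 0.15 with the muscle covariate. The cause of these shifts was not tested.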
